A study of Mus musculus with 6 samples.

Results

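The genes described here are 8 of the 25403 genes counted in these livers, and all of them belong to the presentation of antigen on MHC class II molecules. They were taken by symbol: the classical chains *H2-Aa*, *H2-Ab1* and *H2-Eb1*, the peptide editor subunits *H2-DMa* and *H2-DMb1*, the invariant chain *Cd74*, the transactivator *Ciita* and the costimulatory ligand *Cd86*. Each symbol had a single entry, and all 8 had enough reads to be tested. RNA had been sequenced from frozen livers of 3 wild-type C57BL6/J mice (WT) and 3 mice with a whole-body *Themis* knockout (*Themis*-KO), one library per liver. Every mouse had been put on a MASH diet at 10 to 12 weeks of age and kept on it for 3 months. MASH is metabolic dysfunction-associated steatohepatitis, and fat made up 40% and fructose 20% of the calories of this diet, which also held 2% cholesterol. *Themis* encodes a regulator of T cell receptor signaling, and the comparison asked how its loss changes the transcriptome of the diseased liver. A whole-body deletion removes the gene from T cells as well as from hepatocytes, and there was no group on a control diet in these libraries.

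An MHC class II molecule is a pair of an alpha and a beta chain that holds a peptide at the cell surface for CD4 T cells to read. The new pair is guarded by the invariant chain, which proteases cut away in the endosome, and H2-DM then exchanges the remaining fragment for a peptide. Dendritic cells, B cells and macrophages express these genes constitutively or on activation, and hepatocytes have little of them in a resting liver. CIITA does not bind DNA itself but docks on factors that sit on conserved promoter elements of the class II genes, and interferon gamma can induce it.

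The libraries held 20679642 to 25649767 counts on genes, and markers of hepatocytes, summed over 8 genes, reached 50692 to 66934 CPM. CPM are counts brought to a common library total and here scaled by TMM, a factor per library that allows for a few abundant genes. *Themis* did not separate the labels. It was at 8.07, 25.6 and 12.0 CPM in the livers labelled WT and at 8.63, 7.74 and 9.97 CPM in those labelled *Themis*-KO, a log2 fold change of -0.79 (edgeR quasi-likelihood test, adjusted p = 0.199, SE 0.38). The part of the gene that was removed is not given in the sources used here, so the groups are named below by their labels. A further split runs across the WT label. Of the summed CPM of the mitochondrial gene *mt-Nd3* and of *Gm28438*, the latter held 96.6% and 96.8% in WT replicates 1 and 2, but 2.20% to 3.26% in WT replicate 3 and the 3 KO-labelled livers. What sets these 2 libraries apart was not tested, and results are given below with this split as a covariate and with WT replicate 3 alone. KO replicates 1 and 2 were the most alike of all pairs of livers. The chi-square of their counts per degree of freedom, lower for libraries more alike, was 9.80. In every other pair it was 27.6 to 89.6, and the reason was not tested. Nothing in the labels says whether the mice of a group shared a litter or cage.

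Class II transcripts were higher in the livers labelled *Themis*-KO, by close to 2-fold, for each of the 3 classical chains, both H2-DM subunits, the invariant chain and the transactivator. These 7 members passed the test (adjusted p under 0.05, Benjamini-Hochberg over 14496 genes), and in all 7 every KO-labelled liver lay above every WT-labelled liver. *Cd86* was the exception, since its groups overlapped. Of all genes tested, 9.11% passed, 4.97% as higher and 4.14% as lower in the KO-labelled livers. Every KO-labelled liver lay above every WT-labelled liver for 17.7% of them. Without adjustment, 4449 of the 14496 genes had a p under 0.05 in edgeR, both directions together. The median log2 fold change was 0.96 over the members and 0.01 over all genes tested. In whole liver, more cells of a type cannot be told apart from more RNA per cell. The cell type markers that moved with these genes are given further on.

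**Figure D1:**
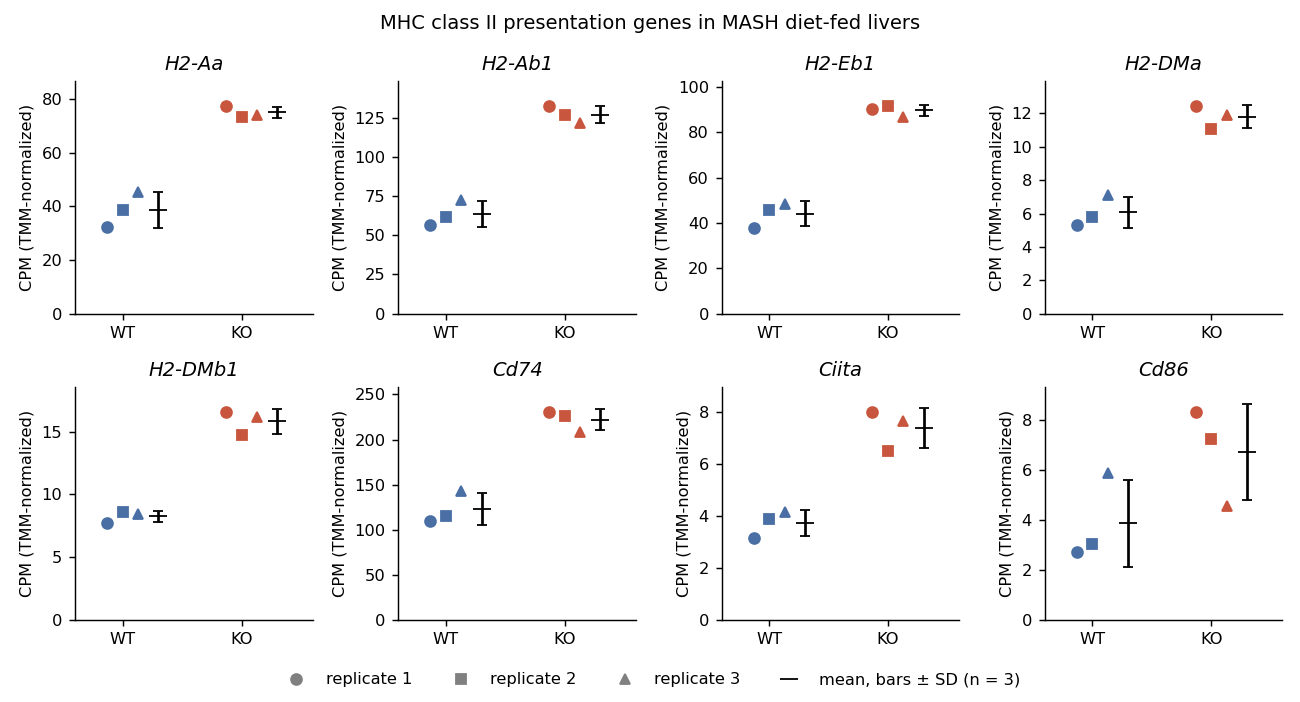
CPM (TMM-normalized, linear axes from 0) of each of the 8 genes by label, WT or *Themis*-KO, 1 point for each of 6 livers, with the mean and SD of 3 livers beside them. The groups are apart in 7 panels, and in *Cd86* WT replicate 3 (5.88) sits above KO replicate 3 (4.58).

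The classical chains form the peptide-binding molecules themselves. *H2-Aa* (ENSMUSG00000036594), the alpha chain of I-A, was at 32.1, 38.6 and 45.3 CPM in the livers labelled WT and at 77.4, 73.4 and 74.2 CPM in those labelled *Themis*-KO. Its 3 KO-labelled values were tightly grouped, and WT replicate 3 was the highest of the WT-labelled livers. The log2 fold change was 0.95 (adjusted p = 0.0127, SE 0.13). *H2-Ab1* (ENSMUSG00000073421), the beta chain that pairs with it, was at 56.5, 61.8 and 72.6 CPM against 133, 127 and 122 CPM. The groups were again far apart, with the highest WT-labelled value in WT replicate 3. Its log2 fold change was 1.00 (adjusted p = 0.00936, SE 0.11). *H2-Eb1* (ENSMUSG00000060586), the beta chain of I-E, was at 38.0, 45.8 and 48.4 CPM against 90.4, 91.6 and 86.9 CPM. With a log2 fold change of 1.02 (adjusted p = 0.00926, SE 0.10), it was the only one of the 8 genes that also reached a fold change of 2. I-E is not assembled in mice of the C57BL/6 strain, which carry a defect in the alpha chain gene *H2-Ea*, and no row for *H2-Ea* was found under the symbols searched.

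All 3 chains lie within the class II region of chromosome 17. In the GRCm38 build, with GENCODE annotation of that build, *H2-Ab1* spans chr17:34257689-34269419 on the forward strand, *H2-Aa* chr17:34282744-34287823 on the reverse strand and *H2-Eb1* chr17:34305867-34316674 on the forward strand. The antisense gene *Gm20513* overlaps *H2-Eb1* and had at most 1 count in any liver. Because these genes moved together, the promoters are shown for 2 of them. RefSeq promoter windows (GRCm38.p6, 250 bases before to 50 after a start site) were found for 4 of the 8 members, namely *H2-Aa*, *H2-Eb1*, *H2-DMa* and *H2-DMb1*. The windows were searched on both strands for 3 letter patterns of class II promoters: the core of the X1 element, bound by RFX factors (AACNGATG), the X2 element, bound by CREB-family factors (TGACGTCA), and the Y element, an inverted CCAAT box bound by NF-Y (TGATTGG). The letters were chosen with these sequences known, and no 2 of the patterns overlap in the stretches shown. Of 32851 promoter windows, 2.32% held the X1 core, 1.79% held X2, 7.82% held Y, and 0.332% held Y together with X1 or X2. Windows of the non-members *H2-DMb2* and *H2-Eb2* also held the X1 core and Y, and those of *H2-Oa* and *H2-Ob* held Y. *H2-DMb2* and *H2-Ob* did not pass the test, and *H2-Eb2* and *H2-Oa* were too scarce to be tested. Whether the patterns bear on the class II difference was not tested. In the stretches below, printed 5′ to 3′ on the strand of the gene, capitals mark the X pattern first and the Y pattern second. The *H2-Aa* stretch is chr17:34287857-34287912 on the reverse strand and the *H2-Eb1* stretch is chr17:34305763-34305822 on the forward strand.
H2-Aa: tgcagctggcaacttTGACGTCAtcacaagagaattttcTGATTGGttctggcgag
H2-Eb1: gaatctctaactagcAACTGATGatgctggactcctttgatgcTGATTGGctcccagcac
The first bases of X2 and Y lie 74 and 50 bases before the start of *H2-Aa*, with 16 bases between the patterns. In *H2-Eb1* those of X1 and Y lie 89 and 61 bases before the start, with 20 bases between.

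*H2-DMa* (ENSMUSG00000037649) and *H2-DMb1* (ENSMUSG00000079547) encode the subunits of H2-DM, which loads peptides and is not itself shown at the surface. *H2-DMa* was at 5.32, 5.81 and 7.10 CPM in the livers labelled WT and at 12.5, 11.1 and 11.9 CPM in those labelled *Themis*-KO. *H2-DMb1* was at 7.71, 8.59 and 8.44 CPM against 16.6, 14.7 and 16.2 CPM. Neither pair of groups overlapped, and WT replicate 3 did not stand above the others in *H2-DMb1*. The log2 fold changes were 0.96 (adjusted p = 0.0173, SE 0.14) and 0.94 (adjusted p = 0.0102, SE 0.11). *H2-DMb2*, a close copy of *H2-DMb1* beside it on the chromosome, was at 0.642 to 0.912 CPM in the WT-labelled and 0.688 to 1.06 CPM in the KO-labelled livers. Reads that match both copies were shared between them by the counting program, so the split between this pair is uncertain. In GRCm38, *H2-DMa* spans chr17:34119541-34139101 and *H2-DMb1* chr17:34153072-34160230, both on the forward strand. The *H2-DMa* model overlaps *Brd2* on the opposite strand, and the strand setting of the counting is not given in the sources used here. *Brd2* itself had a log2 fold change of 0.31 (adjusted p = 0.0919, SE 0.10). The *H2-DMb1* promoter window held the X1 core, as AACTGATG, and the Y pattern at 92 and 63 bases before the RefSeq start of that window, with 21 bases between them. That start lies inside the GENCODE span just given, and so do both matches. Neither of the windows at 2 start sites of *H2-DMa* held any of the 3 patterns as spelled.

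*Cd74* (ENSMUSG00000024610), on chromosome 18, encodes the invariant chain, which blocks the groove of new class II molecules and guides them to the endosome. It was the most abundant of the 8 genes, at 110, 116 and 143 CPM in the livers labelled WT and 230, 226 and 209 CPM in those labelled *Themis*-KO. The lowest KO-labelled liver was 1.46-fold above the highest WT-labelled one, the narrowest gap among the 7 members whose groups were apart. Its log2 fold change was 0.85 (adjusted p = 0.0131, SE 0.12).

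*Ciita* (ENSMUSG00000022504, chr16:10480059-10528418, forward strand) encodes the transactivator on which constitutive and induced class II transcription depends. Its level was low, 3.17, 3.89 and 4.14 CPM against 7.99, 6.49 and 7.65 CPM, which corresponds to 69 to 188 counts in a library. The groups did not overlap. The log2 fold change was 0.98 (adjusted p = 0.0230, SE 0.17). *Dexi*, which overlaps *Ciita* on the opposite strand, had a log2 fold change of -0.12 (adjusted p = 0.425, SE 0.10).

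*Cd86* (ENSMUSG00000022901, chr16:36603869-36666081, reverse strand) encodes a ligand of CD28 and CTLA-4 on antigen-presenting cells and is no part of the class II molecule. It was at 2.71, 3.02 and 5.88 CPM in the livers labelled WT and at 8.33, 7.27 and 4.58 CPM in those labelled *Themis*-KO. WT replicate 3 was above KO replicate 3, and the other 4 livers lay outside this pair, in the order of their labels. The log2 fold change was 0.79 (SE 0.34), and it did not pass (adjusted p = 0.160). The spread over livers, as the SD in percent of the mean, was 45.2% and 28.7% in *Cd86* for the 2 labels. Over the other 7 members it ran from 5.74% to 17.1% in the WT-labelled and from 2.75% to 10.6% in the KO-labelled livers.

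Per length of annotated exons, the order of the levels was *Cd74*, *H2-Ab1*, *H2-Eb1*, *H2-Aa*, *H2-DMb1*, *H2-DMa*, *Cd86* and *Ciita* under both labels. In CPM per kilobase of exon, *Cd74* averaged 73.1 in the livers labelled WT and 132 in those labelled *Themis*-KO, *H2-Ab1* 24.8 and 49.5, and *H2-Eb1* 22.7 and 46.1. *H2-Aa* followed at 10.2 and 19.7 CPM per kilobase. *H2-Ab1* and *H2-Eb1* overlapped in the WT-labelled livers (22.0 to 28.3 against 19.5 to 24.9 CPM per kilobase), and so did *H2-DMa* and *Cd86* there (1.54 to 2.06 against 0.739 to 1.61 CPM per kilobase). No other neighbours in this order overlapped under either label. The lengths are unions over all annotated transcripts, which can exceed those of the transcripts expressed. *Ciita*, at 0.391 and 0.774 CPM per kilobase, was the lowest throughout.

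Within each liver, the class II genes kept similar proportions to each other. *H2-Aa* per *H2-Ab1* lay between 0.568 and 0.625 in all 6 livers, as a ratio of CPM, and *H2-Eb1* per *H2-Ab1* between 0.666 and 0.741. *Ciita* came to 2.49 to 2.66 CPM per 100 CPM of the 3 summed chains in the livers labelled WT and to 2.23 to 2.704 in those labelled *Themis*-KO. H2-DM, summed over both subunits, was 0.0885 to 0.103 of the chains over the 6 livers. *H2-DMa* per *H2-DMb1* varied more, from 0.676 to 0.841 under the WT label and from 0.735 to 0.754 under the KO label. Only *Cd74* per summed chains was without overlap between the labels, at 0.791 to 0.865 under the WT label and 0.737 to 0.776 under the KO label. *Cd86* per 100 CPM of the chains ranged most, from 1.62 to 3.53, with both extremes in the replicates numbered 3. These ratios share reads and libraries, and no test was made on them.

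**Figure D2:**
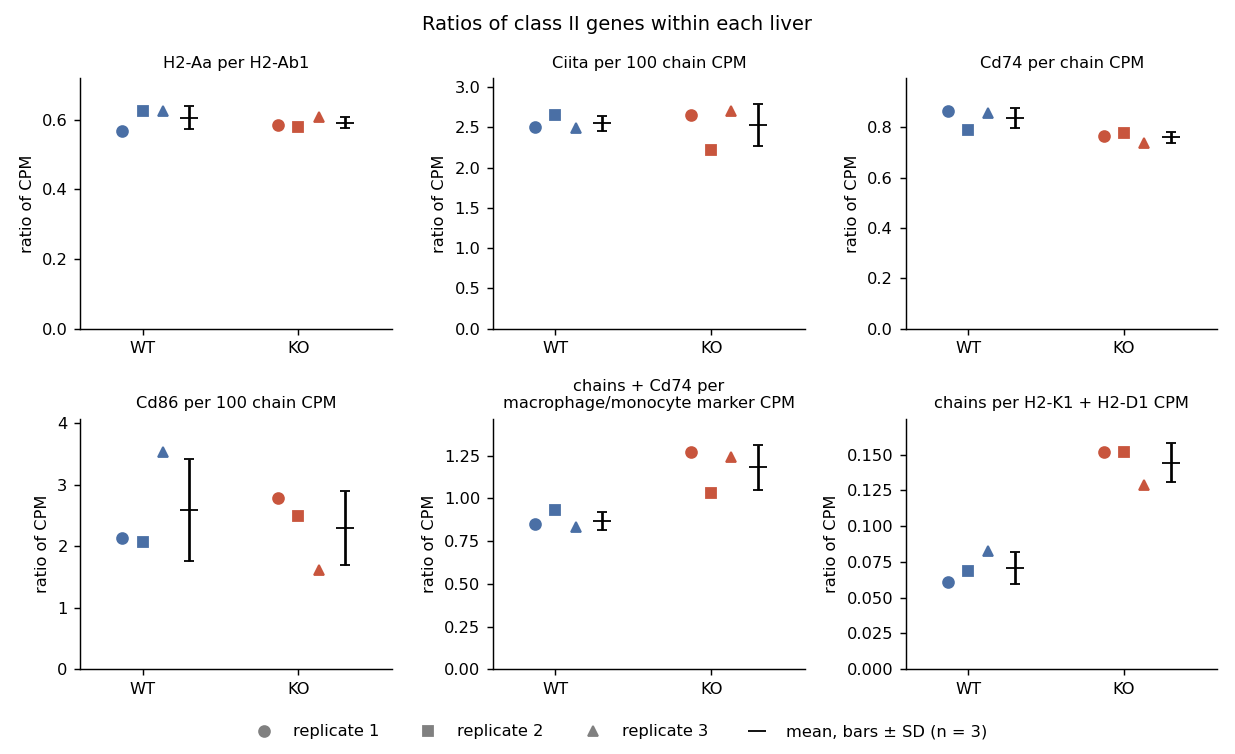
Ratios of CPM within each liver (linear axes from 0), 1 point per liver, with the mean and SD of 3 livers per label; chains are *H2-Aa*, *H2-Ab1* and *H2-Eb1* summed. *H2-Aa* per *H2-Ab1* and *Ciita* per chain overlap between the labels, while the chains per class I genes (0.0610 to 0.0829 and 0.128 to 0.152) do not.

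Calls among the other genes of the pathway differed from list to list. Of 58 genes tested on 6 pathway lists, 5 were higher in the KO-labelled livers and 2 lower, against the 4.97% and 4.14% of all genes. The remaining class II genes were scarce. *H2-DMb2* and *H2-Ob*, the latter a subunit of the H2-DM inhibitor H2-O, were tested, did not pass by edgeR or DESeq2 or at an unadjusted p under 0.05, and had log2 fold changes of 0.23 (adjusted p = 0.634, SE 0.30) and 0.00 (adjusted p = 0.998, SE 0.40). The sign of *H2-Ob* turned with the scaling and with the livers used. *H2-Oa*, the other subunit of H2-O, and *H2-Eb2* had at most 11 and 8 counts in a liver and were not tested.

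Among the genes of peptide loading and turnover, 3 of 9 tested were higher (5 by DESeq2), with a median log2 fold change of 0.35. *Ctss* encodes cathepsin S, which trims the invariant chain in antigen-presenting cells. It was at 55.6, 59.7 and 83.7 CPM in the livers labelled WT and at 114, 135 and 103 CPM in those labelled *Themis*-KO, and rose by 0.82 on the log2 scale (adjusted p = 0.0345, SE 0.17). *Lgmn*, an asparagine-specific endosomal protease, rose by 0.78 (adjusted p = 0.0426, SE 0.19), and *Ctsb*, cathepsin B, by 0.35 (adjusted p = 0.0498, SE 0.09). The *Ctsb* call was kept in 4 other settings of the fit and lost in 10. Among the 10 were RLE size factors and upper quartile scaling (edgeR, adjusted p = 0.0543 in each). The calls of *Ctss* and *Lgmn* were each lost in 6. *Ctsl*, encoding cathepsin L, was among the most abundant of the list at 512 to 784 CPM and overlapped between the labels. *Marchf1*, the ubiquitin ligase that removes class II and CD86 from the surface, had a log2 fold change of 0.82 (SE 0.21) and missed the threshold (adjusted p = 0.0516), which it passed by DESeq2 (adjusted p = 0.0239). It is named here after its value was seen.

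None of 14 tested partners and regulators of the transactivator passed in edgeR, at a median log2 fold change of 0.16, while 3 were higher at an unadjusted p under 0.05 and 1 by DESeq2. The 3 subunits of RFX had log2 fold changes of 0.15 (*Rfx5*), 0.17 (*Rfxap*) and 0.06 (*Rfxank*), and those of NF-Y 0.21 (*Nfya*), -0.03 (*Nfyb*) and 0.01 (*Nfyc*), with adjusted p between 0.226 and 0.970, and the signs of *Rfxank*, *Nfyb* and *Nfyc* turned under other settings. The coactivators *Kat2b* (-0.08, SE 0.08) and *Ep300* (0.03, SE 0.07) were the most abundant. *Spi1*, encoding the myeloid factor PU.1, was nearest to the threshold, at 7.20, 7.05 and 11.4 CPM against 17.3, 17.9 and 11.9 CPM, with a log2 fold change of 0.88 (adjusted p = 0.0545, SE 0.23). Every KO-labelled liver was above every WT-labelled one, although WT replicate 3 and KO replicate 3 differed little, and it passed when either of these was left out (adjusted p = 0.0335 and 0.0115) and by DESeq2 (adjusted p = 0.00565). The RFX and NF-Y subunits and *Spi1* are named after their values were seen.

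On the interferon gamma axis 1 of 9 genes tested was higher. *Ifngr1*, the ligand-binding receptor chain, was at 21.3, 21.5 and 28.7 CPM against 45.7, 45.8 and 30.2 CPM, with a log2 fold change of 0.77 (adjusted p = 0.0466, SE 0.19). *Ifng* itself had at most 1 count in any liver, so no difference in it was detectable at this depth. *Jak1*, a kinase bound to the receptor, was at 90.2 to 122 CPM with a log2 fold change of 0.14 (SE 0.12). It did not pass, and its groups overlapped.

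Of 7 costimulatory and inhibitory genes tested, *Icosl*, the ligand of ICOS, was higher by 1.03 on the log2 scale (adjusted p = 0.0395, SE 0.23), at 1.28 to 1.66 CPM in the livers labelled WT and 2.41 to 3.61 CPM in those labelled *Themis*-KO. *Cd4*, the coreceptor that binds class II, moved the other way, at 2.02, 1.06 and 1.82 CPM against 0.595, 0.516 and 0.661 CPM (log2 fold change -1.46, adjusted p = 0.0386, SE 0.32). *Cd274*, which encodes PD-L1, was the most abundant of these genes at 4.40 to 7.52 CPM and overlapped (0.32, adjusted p = 0.343, SE 0.21).

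Class I genes serve presentation to CD8 T cells. Of 17 tested, none was higher by edgeR, by DESeq2 or at an unadjusted p under 0.05 in edgeR, and 1 was lower by either tool. Their median log2 fold change was -0.09. *Tap1*, a subunit of the peptide transporter into the endoplasmic reticulum, fell from 40.7 to 48.1 CPM to 30.9 to 35.3 CPM (log2 fold change -0.43, adjusted p = 0.0386, SE 0.10). *H2-K1*, a heavy chain, had a log2 fold change of -0.15 (SE 0.10) and *B2m*, the light chain, 0.03 (SE 0.10), and the sign of *B2m* turned when WT replicate 3 or KO replicate 3 was left out. The class II chains per summed *H2-K1* and *H2-D1* were 0.0610, 0.0683 and 0.0829 in the WT-labelled livers and 0.152, 0.152 and 0.128 in the KO-labelled ones.

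**Figure D3:**
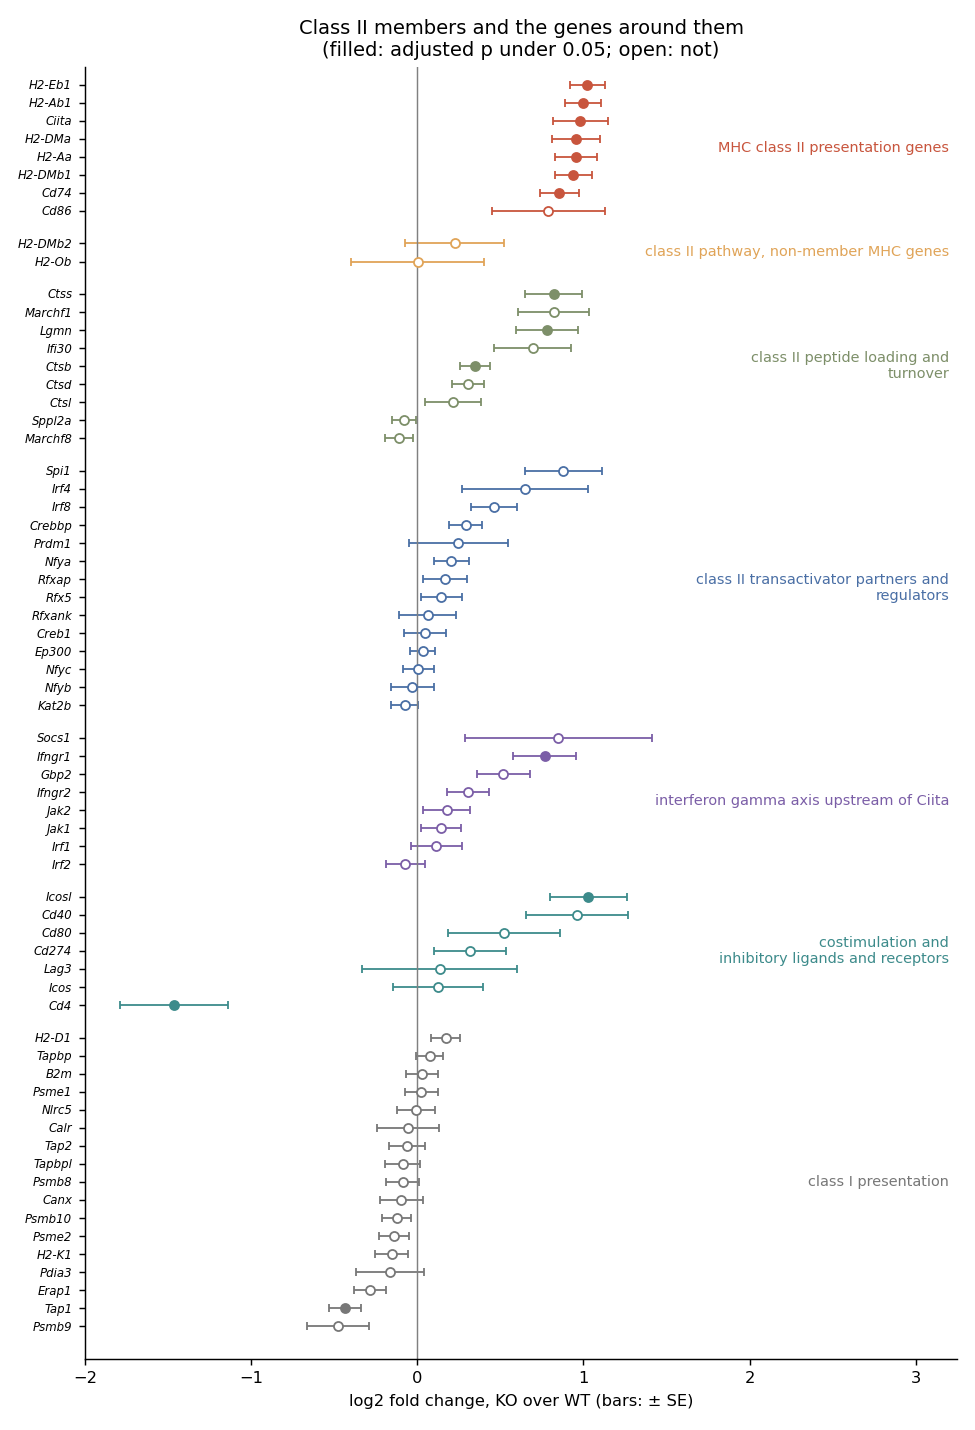
Log2 fold change, *Themis*-KO over WT label, with bars of 1 SE, for the 8 genes and the tested genes of 6 pathway lists (1 gene is not shown); filled points have an adjusted p under 0.05. The members lie between 0.79 and 1.02, and the class I genes between -0.48 and 0.17.

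Markers of antigen-presenting cells moved in part with the class II genes, and so did some markers of other cells. Of 10 dendritic cell markers tested, 2 were higher, *Itgax* (log2 fold change 1.34, adjusted p = 0.0401, SE 0.31) and *Batf3* (1.18, adjusted p = 0.0405, SE 0.27), and their summed level was 26.1 to 29.0 CPM in the livers labelled WT and 38.5 to 49.7 CPM in those labelled *Themis*-KO. Of 12 macrophage and monocyte markers, 4 were higher, *Cd68* (1.06, SE 0.23), *Ccr2* (1.14, SE 0.24), *Cx3cr1* (1.09, SE 0.21) and *Fcgr1* (0.99, SE 0.21), with adjusted p between 0.0300 and 0.0369. DESeq2 called 3 of the dendritic cell and 8 of the macrophage and monocyte markers higher, and 6 and 9 were higher at an unadjusted p under 0.05 in edgeR. Of all genes, DESeq2 called 8.02% higher. In edgeR 4449 of 14496 had an unadjusted p under 0.05, both directions together. The macrophage and monocyte sum was 278 to 372 CPM against 395 to 502 CPM. Of 8 Kupffer cell markers none was higher in edgeR (1 by DESeq2 and 1 at an unadjusted p under 0.05), and *C6* was lower (-0.73, adjusted p = 0.0418, SE 0.17). The sums overlapped, at 430 to 622 and 470 to 568 CPM. *C6* averaged 232 and 140 CPM for the 2 labels, within mean sums of 526 and 508 CPM. *Cd5l*, named after its value was seen, went the other way, at 134 and 218 CPM (0.70, adjusted p = 0.0649, SE 0.20). In all, 4 of the 8 had a positive log2 fold change. Of 9 B cell markers tested, 0 passed in edgeR or DESeq2 and 0 had an unadjusted p under 0.05. Their sums overlapped as well, at 9.59 to 17.5 and 10.3 to 17.7 CPM. The last counts of this paragraph, from the fit with the mitochondrial split, take both directions together. With the mitochondrial split as a covariate, no gene of these 4 lists passed in edgeR, and 4, 4, 4 and 0 of them had an unadjusted p under 0.05, in the order given.

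Relative to the summed markers of each of these cell types, as listed here, the chains and *Cd74* were higher in every KO-labelled liver than in any WT-labelled one. Per macrophage and monocyte marker CPM they were 0.831 to 0.931 in the livers labelled WT and 1.03 to 1.27 in those labelled *Themis*-KO. Per dendritic cell marker CPM they were 9.06 to 10.66 and 10.69 to 13.5, where WT replicate 3 and KO replicate 1 nearly touched. These ratios share their libraries, and no test was made on them. Per Kupffer cell marker CPM the ranges were 0.448 to 0.608 and 0.913 to 1.09, and per B cell marker CPM 14.99 to 24.6 and 27.8 to 50.4. The ratio of the label means was 1.91 for the chains and *Cd74*, 1.57 for dendritic cell markers, 1.41 for macrophage and monocyte markers, 1.07 for B cell markers and 0.965 for Kupffer cell markers. The Kupffer cell sum, and so its ratios, weighs *C6* and *Cd5l* most, which moved in opposite directions. *Zbtb46* weighs on the dendritic cell sum, at 9.03 and 8.31 CPM for the 2 labels within mean sums of 27.1 and 42.5 CPM. *Cd37* weighs on the B cell sum, at 5.36 and 6.49 CPM within 13.6 and 14.6 CPM. Both are named after their values were seen. The ratios were not recomputed without single genes, so their separation holds only for these lists as drawn. The part of any cell type in the class II difference was not tested.

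Of the other lists, plasmacytoid dendritic cell markers had 1 of 3 tested higher, *Ly6d* (2.50, adjusted p = 0.0304, SE 0.49), while *Siglech* did not pass (0.21, adjusted p = 0.712) and *Cox6a2* had 0 to 3 counts in every liver. The sum of this list was 34.3 to 69.5 CPM under the WT label and 106 to 248 CPM under the KO label, most of it *Ly6d*. T cell markers had 0 of 6 higher, by edgeR, by DESeq2 or at an unadjusted p under 0.05, and *Cd4* lower, with sums of 5.18 to 6.79 and 4.13 to 8.58 CPM. Endothelial markers had 1 of 8 higher (*Lyve1*, 0.86), stellate cell markers 5 of 8 (*Dcn*, *Col1a1*, *Col1a2*, *Col3a1* and *Pdgfrb*), and cholangiocyte markers 2 of 6 (*Spp1*, 1.44, and *Cldn7*, 1.35), with log2 fold changes in parentheses. The stellate cell sum was 382 to 430 CPM under the WT label and 576 to 635 CPM under the KO label. For cholangiocyte markers, most of whose sum was *Spp1*, it was 153 to 193 and 387 to 615 CPM. Both were without overlap, while the endothelial sums overlapped (242 to 265 and 262 to 293 CPM). Hepatocyte markers had 0 of 8 higher, by the same 3 counts, and 1 lower by edgeR, *Serpina1c* (-1.03), 4 lower by DESeq2 and 3 at an unadjusted p under 0.05. Their sum was 59233 to 66934 CPM under the WT label and 50692 to 52465 CPM under the KO label, without overlap.

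**Figure D4:**
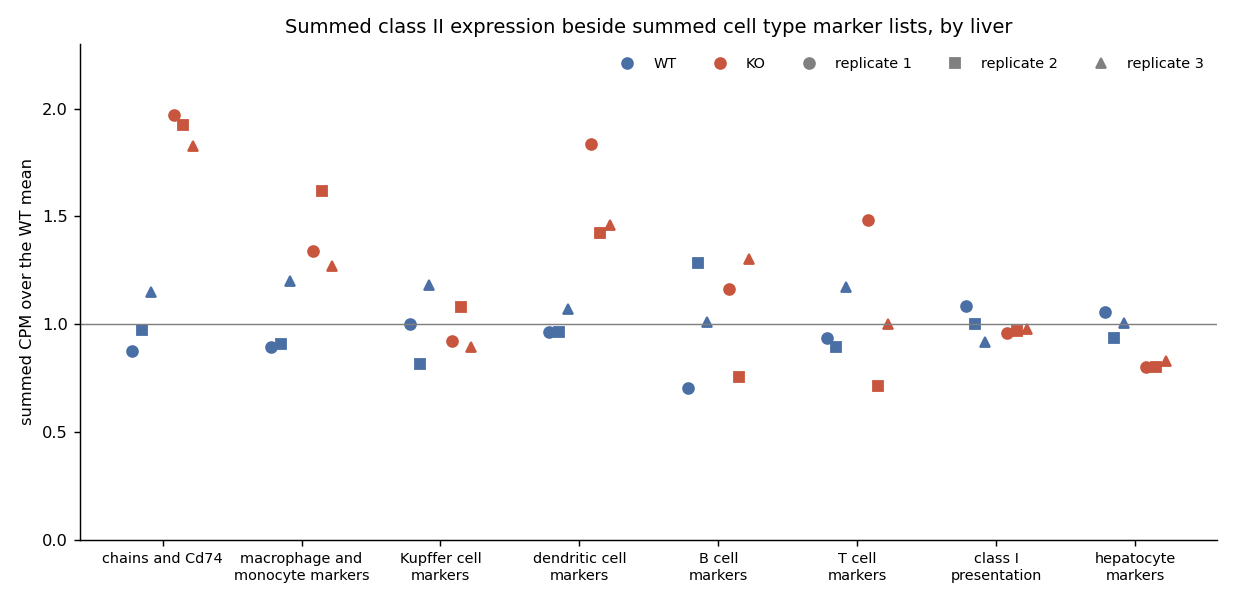
Summed CPM of gene lists in each liver, divided by the mean of the 3 livers labelled WT (linear axis from 0, 1 point per liver). Endothelial, stellate cell, cholangiocyte and plasmacytoid dendritic cell markers are not shown. The chains and *Cd74* are at 1.83 to 1.97 in the 3 KO-labelled livers, macrophage and monocyte markers at 1.27 to 1.62, and B cell markers at 0.757 to 1.3.

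The genes whose profile over the 6 livers was closest to the mean profile of *H2-Aa*, *H2-Ab1*, *H2-Eb1* and *Cd74*, other than the members, were *Pak1*, *Gpx8*, *Tifab*, *Evi2b* and *Enah*. The measure was the root mean square difference between log2(CPM + 0.5) values centred on each gene's own mean, and it was 0.049, 0.057, 0.064, 0.077 and 0.079 for the 5 genes. *Pak1*, a p21-activated kinase, was at 3.44, 4.08 and 5.21 CPM in the livers labelled WT and at 9.09, 9.12 and 8.41 CPM in those labelled *Themis*-KO. Among the members that did not define the profile, *H2-DMa* ranked 6 among all genes tested, *Ciita* 25, *H2-DMb1* 33 and *Cd86* 1504. The points are only 6 livers with a shared split by label, so many genes can lie close.

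The size of the class II difference was steady over the choice of livers, while the calls were not. Leaving out 1 liver at a time, the log2 fold changes stayed between 0.78 and 1.10 for the 7 members that passed and between 0.59 and 1.23 for *Cd86*. Without KO replicate 1, no member passed (7 of 8 at an unadjusted p under 0.05, edgeR) and 0.0543% of all genes were called higher. In that fit 2932 of 14738 genes had an unadjusted p under 0.05, both directions together. Without WT replicate 3 the same 7 passed (3.24% of all genes higher), and likewise without KO replicate 3 (15% of all genes higher). Without WT replicate 1, WT replicate 2 or KO replicate 2, 3 members passed in each case. DESeq2 called the 7 members and 8.02% of all genes higher.

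With the mitochondrial split as a covariate, which sets WT replicate 3 alone against the KO-labelled livers, the log2 fold changes of the 7 members were 0.64 to 0.91 and that of *Cd86* 0.20. None passed (adjusted p from 0.173 to 0.850), although 7 of the 8 had an unadjusted p under 0.05 in edgeR, and 0% of all genes were called higher. Measured as a ratio of CPM, the mean of the KO-labelled livers was 1.55-fold to 1.87-fold that of WT replicate 3 in the 7 members and 1.14-fold in *Cd86*. *H2-DMb1* had the highest of these ratios and *Cd74* the lowest of the 7. WT replicate 3 in turn was 1.04-fold to 1.28-fold the mean of WT replicates 1 and 2 in the 7 members, and 2.05-fold in *Cd86*.

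**Figure D5:**
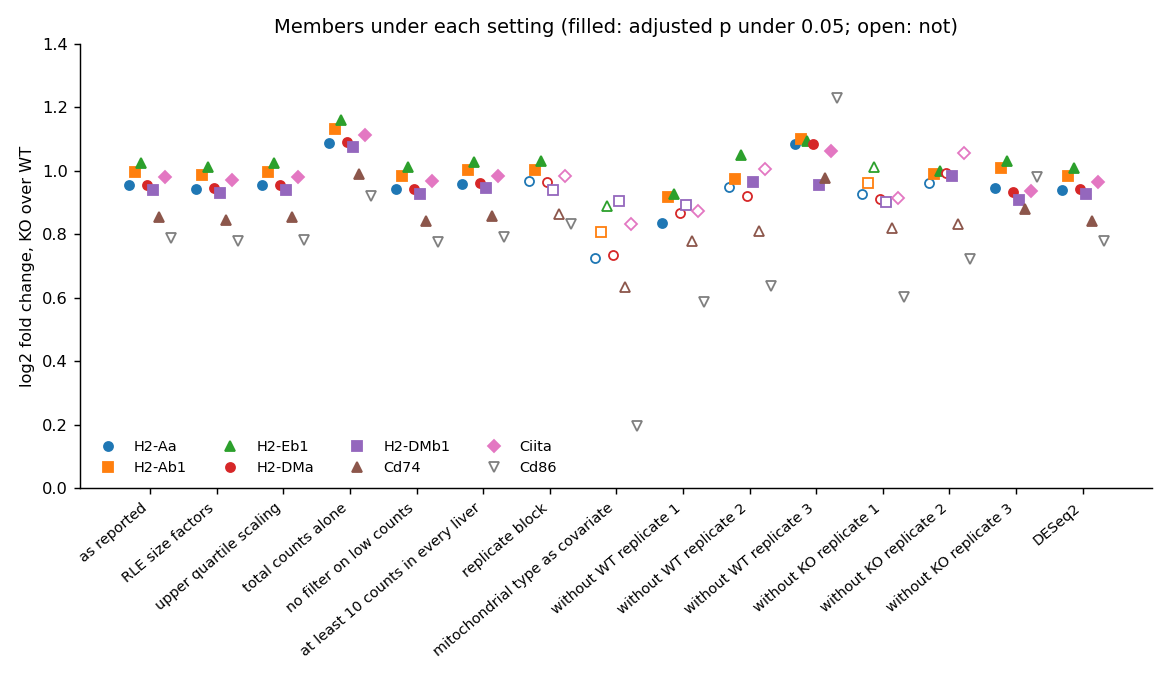
Log2 fold change of each of the 8 genes, *Themis*-KO over WT label, under each setting of the fit; filled symbols have an adjusted p under 0.05. The 7 members that passed lie between 0.64 and 1.16 in every setting, and *Cd86* falls to 0.20 with the mitochondrial type as a covariate.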

How the data were processed

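Per the labels, the authors extracted RNA from frozen livers, and made poly(A) libraries read as pairs of 151 bases. According to the submitters' processing notes these were handled with cutadapt 2.3, STAR 2.7.8a and RSEM 1.3.3 on GRCm38. The release of the annotation and the strand setting are not given in the sources used here. The authors deposited 1 table of estimated counts per gene and liver, whole in every cell and not normalized. RSEM divides reads among similar genes, so values of close copies are not independent.

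The analysis was run with edgeR 4.0.16 under R 4.3.3. filterByExpr kept 14496 of 25403 genes. Libraries were scaled by TMM, and the 3 livers of each label were compared by the quasi-likelihood test without covariates, with Benjamini-Hochberg adjustment over all genes tested and a threshold of 0.05. Each SE is the fitted log2 value divided by the root of its F statistic. DESeq2 1.42.0, other scalings and filters, a replicate block, the mitochondrial split as a covariate and each liver left out were alternatives. Coordinates and exon lengths came from GENCODE M21 (25321 genes matched), and promoters from RefSeq. Libraries of 20679642 to 25649767 counts limit the precision of low genes, and p-values measure only the spread between these livers.

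The 8 members, the lists and the motifs were chosen with earlier results of these data known. Genes named are *Themis*, *mt-Nd3*, *Gm28438*, the members, of each pathway list those with an adjusted p under 0.05 and the 2 most abundant, of each marker list those with an adjusted p under 0.05 or 0 to 3 counts in every liver, and the 5 genes of most similar profile. One gene that this rule covers is not reported here. Exceptions, and genes overlapping a member, are named as such.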

Additional observations from a re-analysis of the deposited data

How the results depend on the processing

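The 7 members that passed kept their direction in every setting run, and RLE size factors, upper quartile scaling, total counts alone, no filter, a filter of at least 10 counts in every liver, DESeq2 and an adjusted p of 0.10 left 7 called. A fold of at least 2 left 1 of them, 2 pathway genes and 431 genes in all. Leaving out each liver gave 0 to 7 members, 0 to 15 pathway genes and 20 to 4267 genes in all, against 7, 7 and 1321. No pathway gene was called without WT replicate 1, WT replicate 2, KO replicate 1 or KO replicate 2 (edgeR, 11, 14, 13 and 13 at an unadjusted p under 0.05), and over all genes 44, 76, 20 and 68 were, against 850 without WT replicate 3 and 4267 without KO replicate 3. Without adjustment, 3173, 3402, 2932 and 3099 of all genes had a p under 0.05 in edgeR without WT replicate 1, WT replicate 2, KO replicate 1 and KO replicate 2. With the mitochondrial type as a covariate, 0 members, 0 pathway genes and 3 genes in all were called (7, 4 and 1524 at an unadjusted p under 0.05, edgeR). With the replicate number as a block these were 2 (*H2-Ab1* and *H2-Eb1*), 0 and 62 (7, 17 and 3445 unadjusted). The numbers did not pair the livers, since correlations of deviations from the label means were 0.010, -0.31 and -0.18 for same-numbered livers. Over all genes, 2179 were called with no filter, 2279 by DESeq2 and 2980 at an adjusted p of 0.10, which also called 16 pathway genes. Total counts alone called 13 pathway genes, moved the median of all genes to 0.15 on the log2 scale and turned 721 higher and 600 lower genes into 1449 and 387. The cause of these changes was not tested.

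The sign changed in 9 of the named genes rerun, none of which passed in any setting run. *H2-Ob* was at -0.010 with RLE size factors, -0.011 with no filter, -0.019 by DESeq2, and -0.26, -0.17, -0.13 and -0.07 without WT replicate 1, WT replicate 3, KO replicate 1 and KO replicate 3. Its highest value was 0.53, without WT replicate 2. *B2m* was at -0.014 without WT replicate 3 and -0.029 without KO replicate 3, and at most 0.088 without WT replicate 2. *Kat2b* was at 0.062 by total counts alone, and *Cd274* at -0.037 with the mitochondrial covariate. *Nfyc* was at -0.0044 with RLE size factors, -0.0063 with no filter and -0.0082 by DESeq2, and from -0.059 to 0.067 with 1 liver left out. *Nfyb* was at 0.11 by total counts alone and from -0.15 to 0.044 with 1 liver left out, where *Rfxank* ran from -0.100 to 0.20 and *Siglech* from -0.20 to 0.38. *Dexi* was at 0.020 by total counts alone. At 2 to 11 counts per liver, *H2-Oa* and *H2-Eb2* could not be tested.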
